A study of Homo sapiens with 8 samples.

Results

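The genes described here are 10 regulators of apoptosis of the BCL2 family, chosen by name: BCL2, BCL2L1, MCL1, BAX, BAK1, BBC3, PMAIP1, BID, BIK and BMF. Each matched 1 of the 57736 Ensembl gene IDs in the count table, and all 10 were among the 16657 genes with enough counts to be tested. Their RNA was measured in 4 groups of 2 libraries of RMG1, an established line from a human clear cell carcinoma of the ovary. The groups were cells in which ARID1A had been knocked out with CRISPR and CAPH2 was wild type (ARID1A knockout), cells wild type for both genes (wild type), cells wild type for ARID1A with CAPH2 knocked down by an shRNA (CAPH2 knockdown), and cells wild type for both genes that carried a control shRNA (shRNA control). ARID1A belongs to SWI/SNF, a complex that moves nucleosomes, and CAPH2, encoded by NCAPH2, belongs to condensin II, which compacts chromosomes. The labels do not say whether the knockout cells were a single clone or a pool. Nor do they say whether replicates were grown separately. A p-value here rests on the spread between libraries of the same group, which the main fit pools over all 4 groups. That spread may be purely technical.

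BCL2 family proteins set whether the outer membrane of the mitochondria stays intact. The effectors BAX and BAK1 can form pores in that membrane, and the cytochrome c released through them starts the caspase cascade. Anti-apoptotic members, among them BCL2, BCL-XL (from BCL2L1) and MCL1, hold the effectors in check. BH3-only proteins, here PUMA (from BBC3), NOXA (from PMAIP1), BID, BIK and BMF, bind the anti-apoptotic members or the effectors and move the cell towards death.

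The libraries held 24559547 to 37378691 counts each, and levels are given as CPM, counts per library size scaled by trimmed means of M values (TMM). A single read corresponded to 0.0261 to 0.0413 CPM. ARID1A was at 6.66 and 5.61 CPM in knockout libraries, against 8.80 and 12.1 CPM in wild-type libraries (log2 fold change -0.77, edgeR adjusted p = 0.00274); the table does not say where the edit lies, and RNA of an edited gene can persist. NCAPH2 was at 8.98 and 8.73 CPM in knockdown libraries, against 24.0 and 25.8 CPM in shRNA control libraries (log2 fold change -1.49, edgeR adjusted p = 1.84e-06). NCAPH2 RNA was also lower in the ARID1A knockout than in wild type (log2 fold change -0.34, SE 0.09), a call held in 8 of 10 alternative fits. All 6 epithelial and clear cell markers that matched an ID, among them EPCAM, KRT8 and PAX8, were at 1 CPM or more in every group. Their sum was 2630 to 2680 CPM in knockout libraries, against 2880 to 3240 CPM in wild-type libraries, with KRT8 at 255 and 260 CPM in knockout libraries, against 414 and 424 CPM in wild-type libraries. Of the 5 leukocyte markers, CD3E was at 0 in all libraries, and the list summed to 1.98 to 2.60 CPM in knockout libraries, mostly PTPRC, against 0.413 to 0.434 CPM in wild-type libraries. The leukocyte marker CD14 ran the other way, at 0.0274 and 0 CPM in knockout libraries, against 0.372 and 0.434 CPM in wild-type libraries. Of the 6 fibroblast markers, COL1A2 and COL3A1 were at 0 in all libraries, and the list summed to 0.992 to 1.12 CPM in knockout libraries, against 0.434 to 0.454 CPM in wild-type libraries. The part of these marker levels in the results was not tested.

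Promoter sequences are shown for the 4 members that both fell in the ARID1A knockout and had an entry in the RefSeq promoter table, and for BAX, a member that did not pass the test, so that each can be read beside its RNA. Each is the 250 bases before a RefSeq transcription start in GRCh38.p14, given 5′ to 3′ on the strand of the gene. For BCL2L1 and BMF, which have more than 1 start in the table, the most upstream one is shown. Lower case is plain sequence, and capitals mark exact matches on either strand to the E-box CACGTG or the CCAAT box CCAAT. BCL2 lies at chr18:63319770-63320019 (minus strand), BCL2L1 at chr20:31723964-31724213 (minus strand), PMAIP1 at chr18:59899746-59899995 (plus strand), BMF at chr15:40108880-40109129 (minus strand) and BAX at chr19:48954625-48954874 (plus strand).
BCL2: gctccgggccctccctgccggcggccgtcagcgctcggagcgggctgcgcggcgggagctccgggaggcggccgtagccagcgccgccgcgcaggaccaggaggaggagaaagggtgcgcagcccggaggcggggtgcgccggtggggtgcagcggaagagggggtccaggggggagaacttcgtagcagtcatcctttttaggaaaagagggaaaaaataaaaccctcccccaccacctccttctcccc
BCL2L1: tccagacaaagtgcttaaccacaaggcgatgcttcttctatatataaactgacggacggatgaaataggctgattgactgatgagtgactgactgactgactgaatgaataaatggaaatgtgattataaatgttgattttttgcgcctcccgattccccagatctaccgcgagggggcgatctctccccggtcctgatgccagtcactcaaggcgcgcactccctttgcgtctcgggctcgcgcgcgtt
PMAIP1: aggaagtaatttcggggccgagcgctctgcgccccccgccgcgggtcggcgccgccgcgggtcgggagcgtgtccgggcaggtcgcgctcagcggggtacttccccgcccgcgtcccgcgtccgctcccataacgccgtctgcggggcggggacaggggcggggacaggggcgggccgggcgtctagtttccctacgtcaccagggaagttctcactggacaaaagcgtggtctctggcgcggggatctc
BMF: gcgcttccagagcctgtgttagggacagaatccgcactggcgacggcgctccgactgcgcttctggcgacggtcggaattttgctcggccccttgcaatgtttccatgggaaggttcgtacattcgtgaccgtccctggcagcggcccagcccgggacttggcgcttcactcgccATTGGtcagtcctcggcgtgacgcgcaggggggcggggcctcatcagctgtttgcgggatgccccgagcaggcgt
BAX: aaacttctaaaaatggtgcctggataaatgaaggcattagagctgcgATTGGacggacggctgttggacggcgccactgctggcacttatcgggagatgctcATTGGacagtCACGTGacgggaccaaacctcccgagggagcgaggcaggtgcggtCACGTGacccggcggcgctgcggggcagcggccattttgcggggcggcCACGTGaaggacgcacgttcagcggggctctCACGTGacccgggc

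Of the 10 members, 8 had at least 1 entry in the RefSeq promoter table; MCL1 and BIK had none. Besides the E-box and the CCAAT box, the letters of an AP-1 site (TGANTCA) and of a cAMP response element (TGACGTCA) were searched on both strands. None of these motifs contains another, and no 2 matches overlapped in the windows shown. The windows of BCL2, BCL2L1 and PMAIP1 held none of the 4 motifs, and their GC content was 70.0%, 50.0% and 72.8%, beside a median of 58.0% over all 35116 promoters. The BMF window held 1 CCAAT box and had a GC content of 65.2%. The BAX window held 4 E-boxes and 2 CCAAT boxes and had a GC content of 62.8%. BBC3 and BAK1 also did not pass the test in the knockout, and their windows are not shown. That of BBC3 held 1 AP-1 site, 1 E-box and 1 CCAAT box, and that of BAK1 held 1 CCAAT box. For BID, which rose, some windows held 1 E-box and the others none of the 4 motifs. Among all promoters of the same length, 6.34% held an E-box, 32.0% a CCAAT box, 6.57% an AP-1 site and 1.65% a cAMP response element. These are matches of letters and do not show that a factor binds there.

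The ARID1A knockout was compared with wild-type cells to ask which RNAs differ when the remodelling subunit is removed. All 3 anti-apoptotic members fell in the knockout, as did the BH3-only genes PMAIP1 and BMF, while the BH3-only gene BID rose. In fold terms, PMAIP1 was at 0.515 times, BCL2L1 at 0.621 times, MCL1 at 0.691 times and BCL2 at 0.779 times the wild-type level, and BID was at 1.50 times. The effectors BAX and BAK1 and the BH3-only genes BBC3 and BIK did not pass the test. Thus 5 of 10 members fell and 1 rose, where 17.8% of all tested genes fell, 16.8% rose and 34.5% changed in either direction. Without knockout replicate 2, 3 members fell and 1 rose. The members' median log2 fold change was -0.37, and that of all tested genes was 0.00. In RNA from whole cultures, fewer cells that express a gene and less of its RNA per cell cannot be told apart.

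Among the anti-apoptotic members, MCL1 encodes a short-lived protein that holds BAK1 and binds NOXA. It was at 155 and 144 CPM in knockout libraries, against 212 and 221 CPM in wild-type libraries. Both knockout libraries lay below both wild-type libraries (log2 fold change -0.53, SE 0.06, edgeR adjusted p = 2.39e-05). BCL2L1 encodes BCL-XL and, by alternative splicing, the pro-apoptotic BCL-XS, which a count per gene does not separate. It was at 61.8 and 59.7 CPM in knockout libraries, against 96.6 and 99.3 CPM in wild-type libraries. The groups did not overlap, and the 2 libraries of each group lay close together (log2 fold change -0.69, SE 0.07, edgeR adjusted p = 9.71e-06). BCL2, the founding member of the family, was at 23.2 and 20.6 CPM in knockout libraries, against 26.6 and 29.5 CPM in wild-type libraries. The groups were separate but near each other (log2 fold change -0.36, SE 0.09, edgeR adjusted p = 0.00701). Without knockout replicate 2 the BCL2 difference was -0.28 and no longer passed (edgeR adjusted p = 0.0739).

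The effectors BAX and BAK1 differed by less than the test can separate from the spread of the libraries. BAX was at 11.7 and 10.4 CPM in knockout libraries, against 9.75 and 9.99 CPM in wild-type libraries (log2 fold change 0.16, edgeR adjusted p = 0.344). BAK1 was at 5.45 and 8.48 CPM in knockout libraries, against 6.49 and 6.62 CPM in wild-type libraries, so that the knockout libraries lay on either side of both wild-type libraries (log2 fold change 0.09, edgeR adjusted p = 0.766). BAK1 has a pseudogene copy, BAK1P1, which held 0 to 19 counts per library, and reads shared between the 2 can be split by the counting.

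Among the BH3-only genes, PMAIP1 encodes NOXA, which binds MCL1. It was at 11.5 and 11.4 CPM in knockout libraries, against 22.3 and 22.2 CPM in wild-type libraries. The 2 libraries of each group were nearly equal and the groups were far apart (log2 fold change -0.96, SE 0.10, edgeR adjusted p = 1.69e-05). BID, which caspase-8 cleaves to link death receptors to the mitochondria, was at 19.8 and 21.6 CPM in knockout libraries, against 13.8 CPM in each wild-type library. It was the single member that rose (log2 fold change 0.59, SE 0.10, edgeR adjusted p = 0.000981).

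BMF, a BH3-only protein tied to the cytoskeleton and released when cells lose attachment, was low in all groups and lowest in knockout cells. It had 7 and 7 counts in knockout libraries, against 18 and 24 counts in wild-type libraries, which is 0.192 and 0.183 CPM in knockout libraries and 0.744 and 0.869 CPM in wild-type libraries. The groups did not overlap (log2 fold change -2.09, SE 0.63, edgeR adjusted p = 0.0233), but the call rests on few reads. It no longer passed without wild-type replicate 2, knockout replicate 1 or knockout replicate 2 (edgeR adjusted p = 0.0745, 0.0895 and 0.104). BBC3, the gene of the p53 target PUMA, was at 3.34 and 2.74 CPM in knockout libraries, against 3.18 and 1.81 CPM in wild-type libraries. BIK, whose protein sits mainly at the endoplasmic reticulum, was at 0.712 and 0.940 CPM in knockout libraries, against 0.826 and 1.30 CPM in wild-type libraries. In both genes the groups overlapped, and neither passed (log2 fold changes 0.29 and -0.37, edgeR adjusted p = 0.438 and 0.490).

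**Figure D1:**
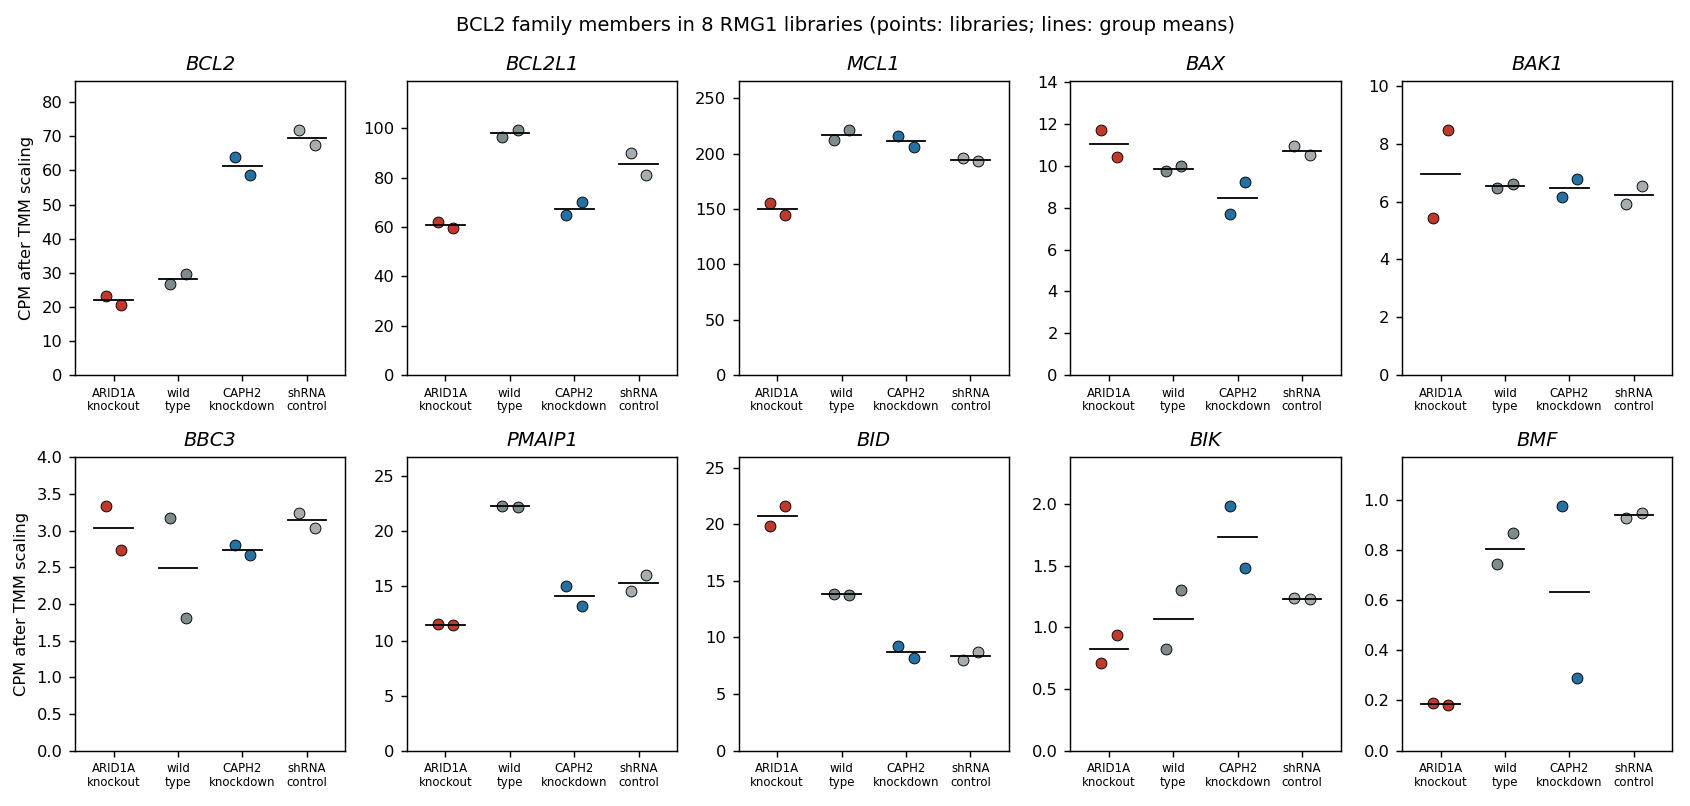
CPM after TMM scaling of the 10 members in the 8 libraries (vertical axis from 0, 1 panel per gene); points are libraries and lines are the means of 2. MCL1, BCL2L1 and PMAIP1 sit lower in both ARID1A knockout libraries than in both wild-type libraries, BID sits higher, and BCL2 is at 58.7 to 71.9 CPM in the knockdown and shRNA control libraries, above all libraries of the other groups.

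The CAPH2 knockdown was compared with the shRNA control to ask which RNAs differ when the condensin II subunit is reduced. BCL2L1 fell, and no other member passed the test in either direction. Thus 1 of 10 members fell and 0 rose, where 8.22% of all tested genes fell, 7.62% rose and 15.8% changed in either direction. At an unadjusted p under 0.05, edgeR gave 3 members lower and 0 higher, and the share of all genes at that threshold is not given here. DESeq2 after adjustment gave 1 lower and 0 higher, beside 1161 lower and 1048 higher of 14486 genes. The members' median log2 fold change was -0.15, and that of all tested genes was 0.00.

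BCL2L1 was at 64.9 and 69.9 CPM in knockdown libraries, against 89.9 and 81.2 CPM in shRNA control libraries. The groups did not overlap (log2 fold change -0.34, SE 0.07, edgeR adjusted p = 0.00419). Without shRNA control replicate 1 the difference was -0.27 (edgeR adjusted p = 0.0662), and without knockdown replicate 1 it was -0.30 (edgeR adjusted p = 0.0535), so the call needs both libraries. BCL2 was at 64.1 and 58.7 CPM in knockdown libraries, against 71.9 and 67.4 CPM in shRNA control libraries. Its groups did not overlap, but the difference did not pass (log2 fold change -0.18, edgeR adjusted p = 0.146) except in a fit of these 4 libraries alone, with a log2 fold change of -0.19 and an edgeR adjusted p = 0.0474. MCL1 was at 216 and 206 CPM in knockdown libraries, against 196 and 193 CPM in shRNA control libraries, a small separation that did not pass (log2 fold change 0.12, edgeR adjusted p = 0.204).

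BAX was at 7.69 and 9.25 CPM in knockdown libraries, against 10.9 and 10.5 CPM in shRNA control libraries. The groups did not overlap, though the 2 knockdown libraries differed from each other by more than the shRNA control libraries did, and the difference did not pass (log2 fold change -0.34, SE 0.12, edgeR adjusted p = 0.0904). BMF was at 0.977 and 0.290 CPM in knockdown libraries, against 0.928 and 0.949 CPM in shRNA control libraries, with 31 and 9 counts in the knockdown libraries. The knockdown libraries thus lay on either side of the controls. PMAIP1 was at 15.0 and 13.1 CPM in knockdown libraries, against 14.5 and 15.9 CPM in shRNA control libraries, and BID was at 9.23 and 8.19 CPM in knockdown libraries, against 7.98 and 8.74 CPM in shRNA control libraries. Both pairs of groups overlapped. The log2 fold changes of PMAIP1, BID, BAK1, BBC3, BIK and BMF ranged between -0.56 and 0.49 and did not pass.

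The 2 perturbations were set against each other with the interaction contrast, the knockout effect minus the knockdown effect. The effect on PMAIP1 differed by -0.84 on the log2 scale (SE 0.14, edgeR adjusted p = 0.000909) and that on MCL1 by -0.65 (SE 0.08, edgeR adjusted p = 0.000111). Both were lower in the knockout relative to its own control. BCL2L1 fell in both comparisons and by more in the knockout, with a difference of -0.35 (SE 0.09, edgeR adjusted p = 0.0175), and BID differed by 0.53 (SE 0.15, edgeR adjusted p = 0.0237). Thus 3 of 10 members had a lower and 1 a higher effect in the knockout, where 14.0% of all tested genes had a lower and 12.3% a higher one, 26.3% in all. The calls for BCL2L1 and BID were lost without knockout replicate 2, shRNA control replicate 2 or knockdown replicate 2, with an edgeR adjusted p of up to 0.0884 for BCL2L1, and BID missed the threshold in DESeq2 as well (adjusted p = 0.0816). For BCL2 (-0.18), BAX (0.51), BAK1 (0.03), BBC3 (0.49), BIK (-0.86) and BMF (-1.52) the difference of the effects did not pass. BAX passed with scaling to total counts (edgeR adjusted p = 0.0480), which gave 5 members in all, and without knockdown replicate 2 (edgeR adjusted p = 0.0354).

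**Figure D2:**
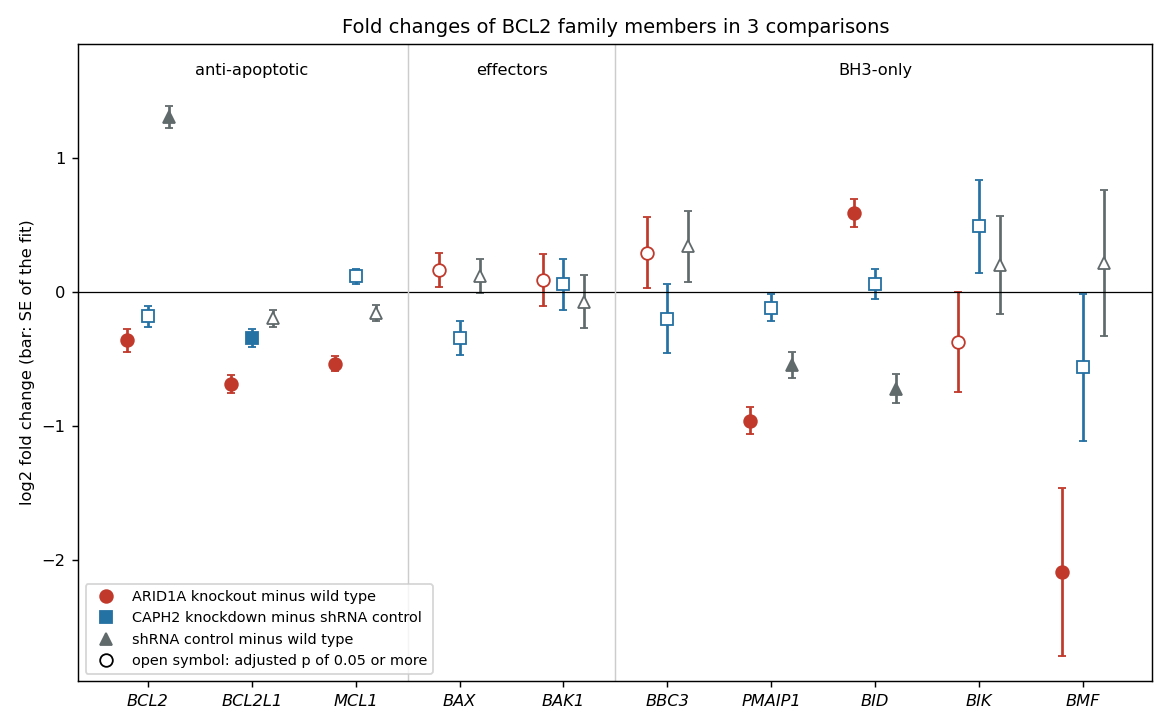
Log2 fold changes of the 10 members (vertical axis, bars are the SE of the fit) in the ARID1A knockout against wild type, the CAPH2 knockdown against the shRNA control and the shRNA control against wild type; filled symbols have an edgeR adjusted p under 0.05. The knockout symbols of all 3 anti-apoptotic genes lie below 0, from -0.69 to -0.36, and BCL2 stands at 1.31 in the shRNA control against wild type.

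The shRNA control and wild-type groups carry the same ARID1A and CAPH2 genotype and differ by the control shRNA, and their comparison shows how far the 2 baselines lie apart. BCL2 was at 71.9 and 67.4 CPM in shRNA control libraries, against 26.6 and 29.5 CPM in wild-type libraries, which is 2.48 times the wild-type level (log2 fold change 1.31, SE 0.08, edgeR adjusted p = 2.68e-06). Every shRNA control library was above every wild-type library by more than the whole range of the knockout and wild-type groups. BID was at 7.98 and 8.74 CPM in shRNA control libraries, against 13.8 CPM in each wild-type library (log2 fold change -0.72, SE 0.11, edgeR adjusted p = 0.00100), and PMAIP1 was at 14.5 and 15.9 CPM in shRNA control libraries, against 22.3 and 22.2 CPM in wild-type libraries (log2 fold change -0.54, SE 0.10, edgeR adjusted p = 0.00264). In all, 1 of 10 members was higher and 2 were lower in the shRNA control, where 9.13% of tested genes were higher, 10.1% lower and 19.2% changed. The control shRNA and any difference of culture or origin between the 2 lines cannot be told apart in this design. The wild-type libraries enter both this comparison and that of the knockout, so the 2 are not independent. In PMAIP1 the value against wild type was -0.96 in the knockout and -0.54 in the shRNA control, and in BID it was 0.59 in the knockout and -0.72 in the shRNA control.

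Levels of different genes were compared per kilobase of the longest coding transcript, as CPM per kilobase. MCL1 stood first and BCL2L1 second in all 4 groups, with a mean MCL1 level of 38.0 ± 1.97 in knockout, 55.1 ± 1.70 in wild-type, 53.7 ± 1.75 in knockdown and 49.5 ± 0.507 in shRNA control libraries (SD, n = 2 each). The BCL2L1 level was 23.3 ± 0.572 in knockout, 37.5 ± 0.724 in wild-type, 25.8 ± 1.35 in knockdown and 32.8 ± 2.35 in shRNA control libraries (SD, n = 2 each). In every group the spread of these 2 genes was far smaller than the gap between them. BMF stood last in all groups. Ranks 3 to 9 changed with the length used, the longest coding transcript or the union of exons, and are not read here.

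Summed per library on the same scale, the 3 anti-apoptotic genes gave a level of 66.2 and 62.3 CPM per kilobase in knockout libraries, against 94.5 and 98.3 in wild-type libraries. The effectors summed to 11.1 and 11.5 CPM per kilobase in knockout libraries, against 10.1 and 10.4 in wild-type libraries, and the BH3-only genes to 16.5 and 17.0 in knockout libraries, against 19.7 and 19.4 in wild-type libraries. The anti-apoptotic sum thus differed most in absolute level between these 2 groups. In the other pair, the anti-apoptotic sum was 88.4 and 87.1 CPM per kilobase in knockdown libraries, against 93.9 and 89.2 in shRNA control libraries, and the effector sum was 8.45 and 9.89 in knockdown libraries, against 10.7 in each shRNA control library. MCL1 made up 53.1% to 62.1% of the anti-apoptotic sum over the 8 libraries. BCL2 made up 4.68% and 4.44% of it in knockout, 3.78% and 4.02% in wild-type, 9.72% and 9.03% in knockdown and 10.3% and 10.1% in shRNA control libraries, so that its share was larger in both shRNA groups. These sums are descriptions of RNA levels with no test, and they depend on the transcript length used.

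**Figure D3:**
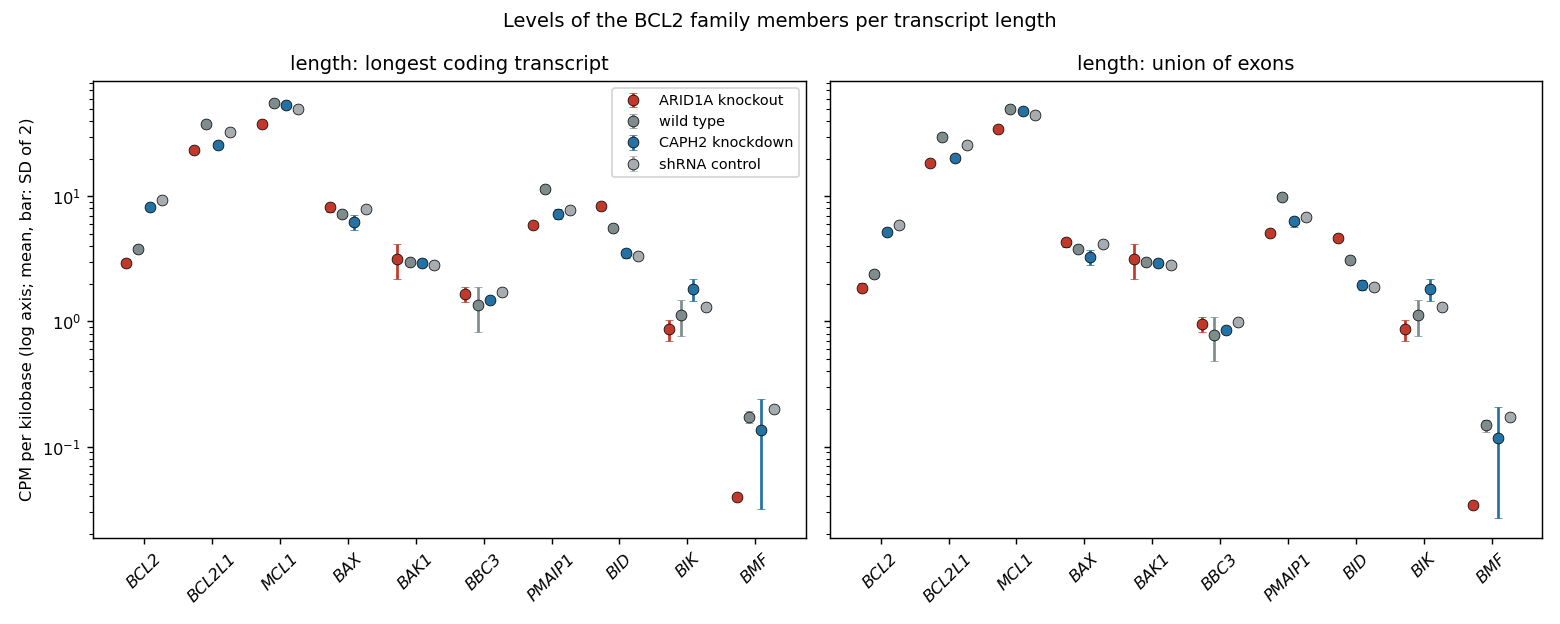
Mean level of each member in CPM per kilobase (vertical log axis, bars are the SD of 2 libraries) in the 4 groups, with the length of the longest coding transcript on the left and of the union of exons on the right. MCL1 and BCL2L1 lead and BMF is last in every group with either length, while the genes in between change places.

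Fold changes of neighbouring genes were read beside those of the members, as the median over the 20 tested genes on each side. BCL2 and PMAIP1 both lie on chromosome 18, close enough that their windows share genes. In the knockout against wild type, the 40 neighbours of BCL2 had a median log2 fold change of -0.40, and 82.5% of them were lower. The value of BCL2 itself, -0.36, differed from this median by 0.04, so BCL2 did not lie below the genes around it. The 40 neighbours of PMAIP1 had a median of -0.37, and PMAIP1 lay below it by a difference of -0.59. The part of this regional shift in the changes of BCL2 and PMAIP1 was not tested. In the shRNA control against wild type, the neighbours of BCL2 had a median of 0.25 and those of PMAIP1 a median of 0.26, with BCL2 above its median by 1.06 and PMAIP1 below its median, at a difference of -0.80. Around the other members called in the knockout the medians were -0.05 for BCL2L1, -0.01 for MCL1, 0.00 for BMF and -0.09 for the 33 neighbours of BID. With 10 genes on each side they were 0.19 for BCL2L1, -0.07 for MCL1, 0.20 for BMF and -0.30 for BID, so these medians depend on the window. The medians around BCL2 (-0.45) and PMAIP1 (-0.43) stayed below 0, as did those around MCL1 and BID. BID itself rose, against the sign of its neighbours' median in either window. Around the edited gene ARID1A, the 40 neighbours had a median of -0.24 in the knockout, and 77.5% of them were lower. With 10 genes on each side the ARID1A median was -0.27. ARID1A lay below the median of its 40 neighbours by a difference of -0.53, and the part of this shift in its change was not tested.

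**Figure D4:**
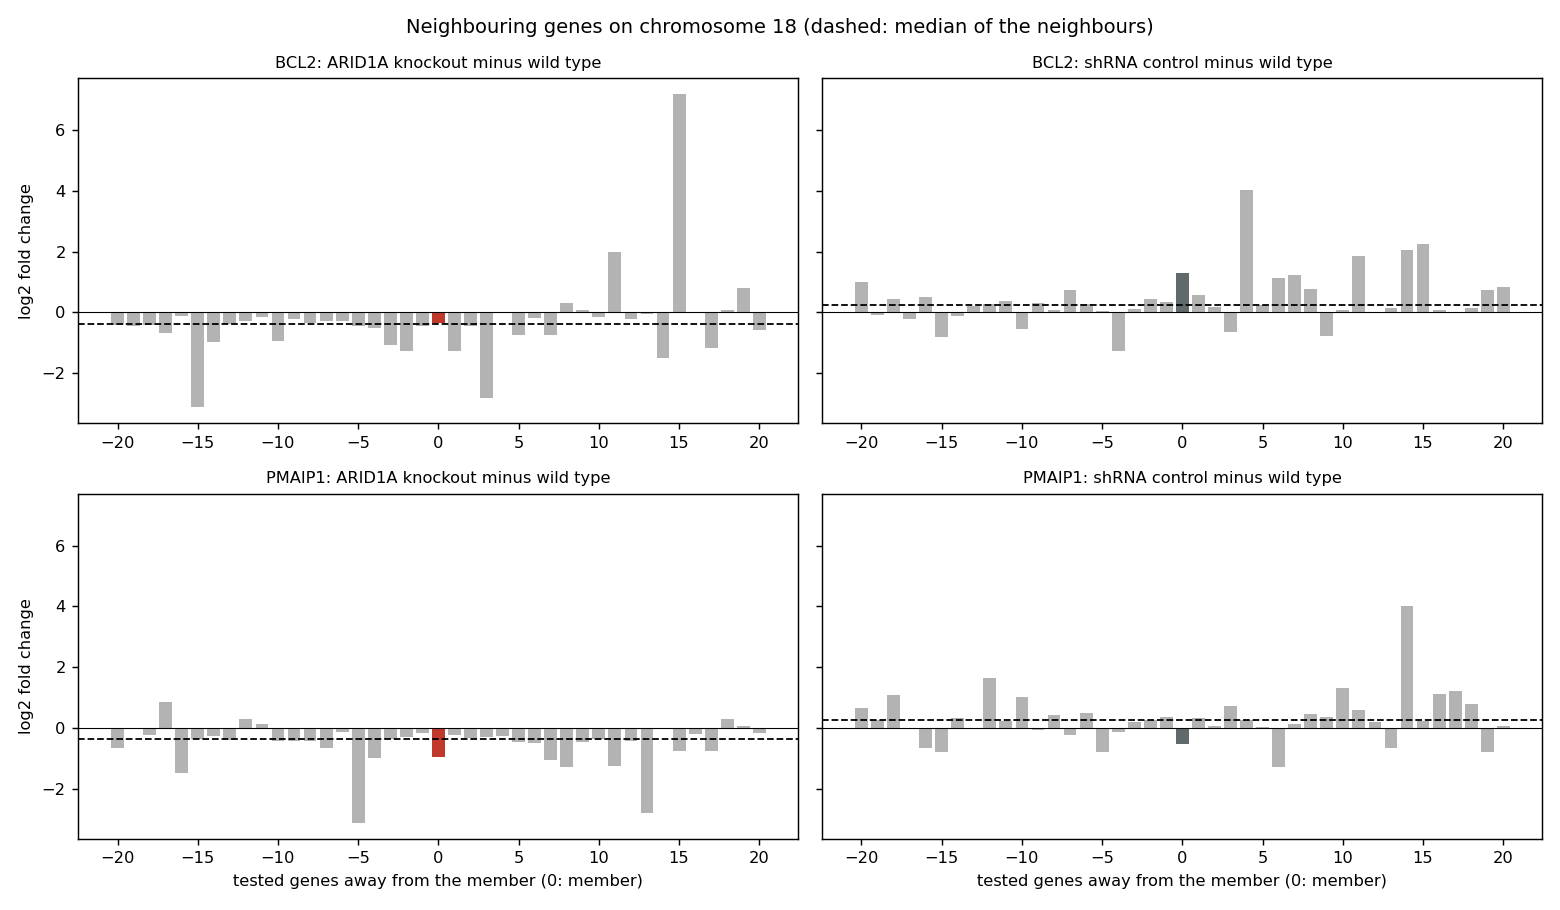
Log2 fold changes (vertical axis) of the 20 tested genes on each side of BCL2 (top) and PMAIP1 (bottom), in gene order (horizontal axis), for the ARID1A knockout against wild type (left) and the shRNA control against wild type (right); the coloured bar is the member and the dashed line the median of the neighbours. In the knockout, most grey bars lie below 0 with medians of -0.40 and -0.37, and the bar of PMAIP1 reaches -0.96.

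The members sit in the intrinsic pathway of apoptosis, and 51 further genes of that pathway, its inputs and its regulators were followed, of which 48 were tested. The counts of BCL2A1, BCL2L10 and BCL2L14 were too low, with 0 in every library for BCL2L10. In the knockout against wild type, 12 of the 48 rose and 13 fell (edgeR, adjusted p under 0.05), with a median log2 fold change of 0.03. Of all genes, 16.8% rose and 17.8% fell. By DESeq2, 11 of the list rose and 8 fell, beside 2300 and 2412 of 17800 genes. In the knockdown against the shRNA control, 6 rose and 4 fell with a median of 0.03, beside 7.62% of all genes that rose and 8.22% that fell. In the shRNA control against wild type, 3 were higher and 6 lower with a median of 0.02, beside 19.2% of all genes that changed, a share close to that of the list. The median of the list was thus near 0 in each comparison, beside a median of -0.37 over the 10 members in the knockout.

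Of the 10 tested further members of the BCL2 family, 4 fell and 1 rose in the knockout, where 17.8% of all genes fell and 16.8% rose. By DESeq2, 3 fell and 1 rose. BCL2L11, the gene of the BH3-only protein BIM, was at 4.71 and 5.79 CPM in knockout libraries, against 8.18 and 7.57 CPM in wild-type libraries (log2 fold change -0.58, edgeR adjusted p = 0.00801), and the call was lost without knockout replicate 1 (edgeR adjusted p = 0.0698). BOK, an effector-like member, was at 1.31 and 1.41 CPM in knockout libraries, against 2.52 and 2.39 CPM in wild-type libraries (log2 fold change -0.85, edgeR adjusted p = 0.0193), and its call was lost in 5 of 10 alternatives. BNIP3 and BNIP3L also fell in the knockout, and these calls held in 8 and 7 of 10 alternatives. In the knockdown, 2 of these 10 genes rose and 0 fell, where 7.62% of all genes rose and 8.22% fell. At an unadjusted p under 0.05, edgeR gave 3 higher and 0 lower, and the share of all genes at that threshold is not given here. DESeq2 after adjustment gave 2 and 0. BCL2L15 was at 4.73 and 4.54 CPM in knockdown libraries, against 0.155 and 0.363 CPM in shRNA control libraries, where it had 5 and 13 counts (log2 fold change 4.12, edgeR adjusted p = 0.000403). BNIP3, which acts in mitophagy and is induced by low oxygen, was at 81.6 and 75.9 CPM in knockdown libraries, against 56.8 and 55.0 CPM in shRNA control libraries (log2 fold change 0.50). In neither gene did the knockdown and control libraries overlap.

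Of the 8 caspase and apoptosome genes, 4 rose and 1 fell in the knockout, where 16.8% of all genes rose and 17.8% fell. By DESeq2, 3 rose and 0 fell. CASP8, which cleaves BID, was at 67.0 and 67.9 CPM in knockout libraries, against 47.2 and 43.6 CPM in wild-type libraries (log2 fold change 0.57), and its paralogue CASP10 was at 11.7 and 11.6 CPM in knockout libraries, against 7.02 and 5.29 CPM in wild-type libraries (log2 fold change 0.92). CASP8 also rose in the knockdown, by a log2 fold change of 0.34. Of the 4 caspase inhibitors, 3 rose in the knockout, where 16.8% of all genes rose, and 2 fell in the knockdown, where 8.22% of all genes fell. By DESeq2, 2 rose in the knockout. The knockout call of XIAP passed in 2 of 10 alternatives, and DESeq2 was not among them. BIRC3, which encodes the ubiquitin ligase cIAP2, was at 181 and 168 CPM in knockout libraries, against 35.1 and 42.5 CPM in wild-type libraries (log2 fold change 2.17, edgeR adjusted p = 1.29e-08). It was at 15.0 and 15.5 CPM in knockdown libraries, against 37.2 and 42.2 CPM in shRNA control libraries (log2 fold change -1.38, edgeR adjusted p = 2.91e-06). BIRC3 thus moved in opposite directions in the 2 perturbations, and so did BIRC5, the gene of survivin, by 0.26 in the knockout and by -0.27 in the knockdown. The knockdown call of BIRC5 was lost without shRNA control replicate 1 or knockdown replicate 2 (edgeR adjusted p = 0.0526 and 0.0677).

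Among the 6 genes of the death receptor arm that feeds BID, 3 rose and 1 fell in the knockout, where 16.8% of all genes rose and 17.8% fell, and 2 fell in the knockdown, where 8.22% of all genes fell. CFLAR, whose product FLIP restrains caspase-8, rose in the knockout by a log2 fold change of 0.58, and TNFRSF10A, a TRAIL receptor, rose by 0.39. CFLAR lies on chromosome 2, as do CASP8 and CASP10, and the part of any regional shift in their changes was not tested. In the knockdown, the TRAIL receptor gene TNFRSF10B fell by 0.50 on the log2 scale. FAS also had a log2 fold change of -0.50 there, but its call was lost with each of the 4 libraries left out in turn. Of the 13 regulators, 0 rose and 6 fell in the knockout, where 16.8% of all genes rose and 17.8% fell. At an unadjusted p under 0.05, edgeR gave 2 higher and 8 lower, and the share of all genes at that threshold is not given here. DESeq2 after adjustment gave 1 and 4. Of the 6 calls, that of CDKN1A held in 4 and that of MARCHF5 in 5 of 10 alternatives. The p53 relative TP73 was at 1.89 and 1.98 CPM in knockout libraries, against 3.76 and 4.38 CPM in wild-type libraries (log2 fold change -1.07, edgeR adjusted p = 0.00268), and FOXO3, a transcription factor known to act on BH3-only genes, was at 22.7 and 21.2 CPM in knockout libraries, against 34.4 and 37.8 CPM in wild-type libraries (log2 fold change -0.72, edgeR adjusted p = 1.77e-05). CDKN1A, the p53 target p21, rose in the knockdown by 0.30 on the log2 scale, a call lost with each of the 4 libraries left out. Of the 7 pore partners and released factors, CYCS, the gene of cytochrome c, rose in the knockout by a log2 fold change of 0.27 and HTRA2, a released protease, had a log2 fold change of -0.29 there (edgeR adjusted p = 0.0495) that passed in 2 of 10 alternatives. CYCS also rose in the knockdown, by 0.20, and this call was lost with each of the 4 libraries left out.

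**Figure D5:**
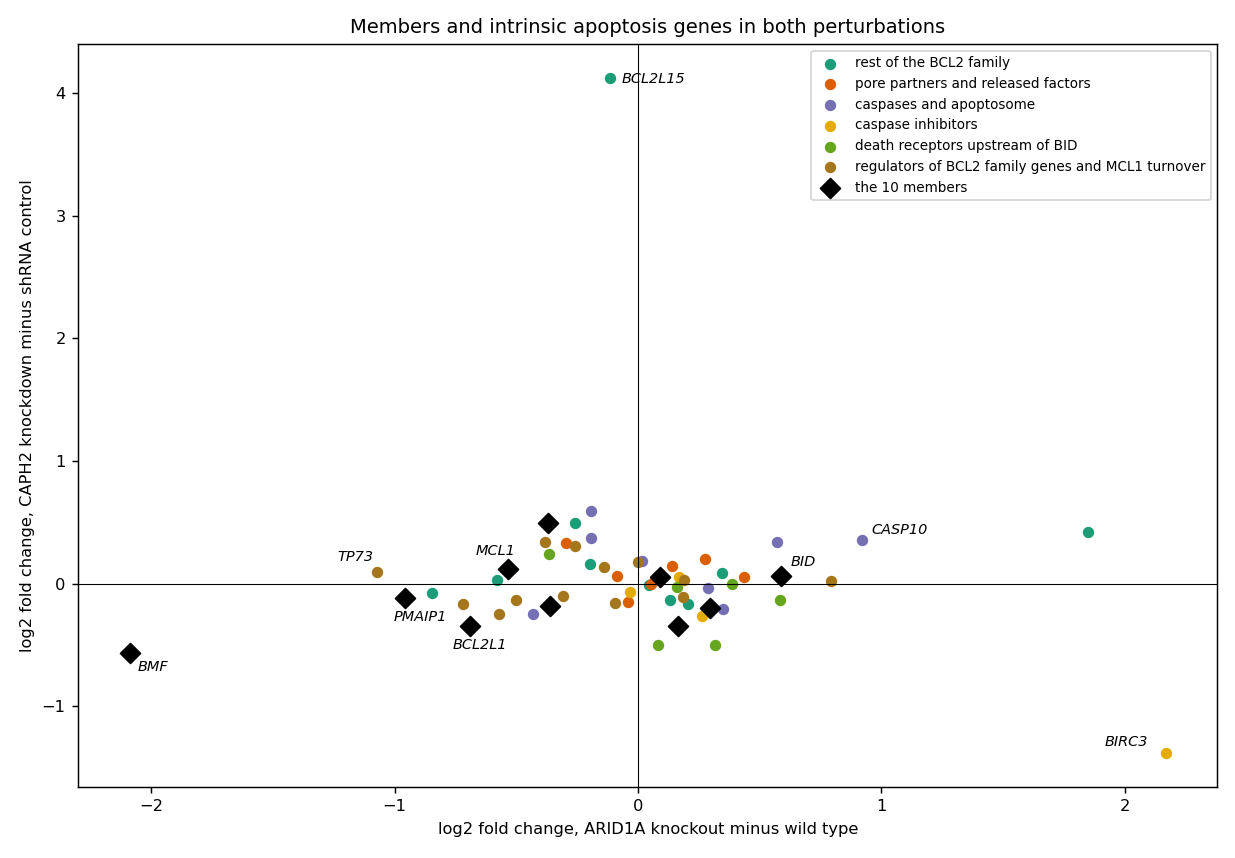
Log2 fold changes in the ARID1A knockout against wild type (horizontal axis) and in the CAPH2 knockdown against the shRNA control (vertical axis) for the 10 members (black diamonds) and the 48 tested genes of the pathway list, coloured by role. BMF and PMAIP1 lie far left of 0, BIRC3 lies at 2.17 and -1.38, and BCL2L15 lies at 4.12 on the vertical axis.

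In the shRNA control against wild type, CDKN1A was lower by a log2 fold change of -0.90 (edgeR adjusted p = 4.69e-05) and FAS by -1.11 (edgeR adjusted p = 9.58e-05). MDM2 (-0.39), CYCS (-0.45) and XIAP (-0.24) were also lower, and CFLAR (0.46), BNIP3 (0.43) and BNIP3L (0.19) were higher. Of these calls, that of BNIP3L was lost in 4 of 10 alternatives (edgeR adjusted p of up to 0.173), among them without either shRNA control replicate, and that of XIAP in a fit of the 4 libraries alone and without shRNA control replicate 2 (edgeR adjusted p = 0.0644 and 0.157). The baseline of the knockdown thus differed from that of the knockout in these genes as well as in BCL2, BID and PMAIP1.

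For the 3 members with the largest changes among those called in the knockout, the genes whose log2 CPM followed them most closely over the 8 libraries were looked up among 12756 genes with a symbol and a mean of at least 1 CPM. Nearest to BMF were LZTS3, TTC7B and TMEM94, each with Pearson's r of 0.97. Nearest to PMAIP1 were TTLL5, BTAF1 and HMOX1, each with r of 0.98. Nearest to BCL2L1 were PCBP2, TTLL12 and RHOF, each with r of 0.99. HMOX1, for example, averaged 25.7 CPM in knockout, 57.8 CPM in wild-type, 35.1 CPM in knockdown and 38.4 CPM in shRNA control libraries, the same order of groups as PMAIP1. The 8 libraries fall into 4 groups of 2, so these values describe the 4 group levels more than 8 separate points, and the genes were picked for being alike.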

How the data were processed

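Per the labels' protocols, the 8 RMG1 libraries were made with a TruSeq total RNA kit from Trizol-extracted, DNase-digested RNA. The authors deposited expected counts for Ensembl genes in 1 table, in which each library has its own column and none is pooled. Per the submitters' processing notes, Bowtie2 and RSEM 1.2.12 were used with hg19 (Bowtie2 version, annotation release and strandedness: not given in the sources used here). All expected counts were whole already, so rounding changed 0 values. RSEM divides reads that match several genes, so values of near-identical copies are uncertain; genes that overlap a member held 0 to 8 counts per library.

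Gene symbols were looked up by Ensembl ID, also in GENCODE 29, which named 28427 of the counted IDs and left 1525 without. GENCODE 29 on GRCh38, another build than hg19, also gave gene order, overlaps between genes and transcript lengths. Promoter windows came from the RefSeq table of GRCh38.p14. Protein sequences were not used here.

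In R 4.3.3, edgeR 4.0.16 fitted 1 quasi-likelihood model with group means to all 8 libraries after filterByExpr by group, which left 16657 genes, and TMM scaling, leaving 4 residual degrees of freedom at a common biological variation (BCV) of 7.74%. P-values were adjusted by Benjamini-Hochberg over all genes tested, and genes with an adjusted p under 0.05 were counted as changed. Tests are two-sided. The script was tested on simulated data. The 2 libraries of each group correlated with Pearson's r of 0.98 to 0.99 across genes and differed by more than sampling noise, with a chi-square per degree of freedom of 4.37 to 19.8.

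The members and lists were chosen with earlier results of these data known. Named beside the members were the targeted genes, the 2 passing genes with the largest change per role of the pathway list and comparison, and the 3 genes most alike to each of the 3 members with the largest changes; a result on 1 such gene is not reported here. Alternatives were other scalings (RLE, total counts), no filter on low counts, a replicate block, fits of 4 libraries, DESeq2 1.42.0, each library left out in turn, another transcript length and 10 neighbours on each side.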

Additional observations from a re-analysis of the deposited data

Results flagged for a closer look

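These results were singled out because the knockout effect and the knockdown effect on a gene differed in the edgeR interaction contrast (adjusted p under 0.05 over all genes tested). Values are the knockout effect minus the knockdown effect on the log2 scale, so a negative value means a lower effect in the knockout. Among the members, PMAIP1 had a value of -0.84, MCL1 of -0.65, BCL2L1 of -0.35 and BID of 0.53. Among further members of the family, the value was -4.24 for BCL2L15, -0.75 for BNIP3, -0.61 for BCL2L11 and -0.36 for BNIP3L. Of 13 alternatives each, the call was lost in 3 for BCL2L1, 4 for BID, 7 for BCL2L11, with DESeq2 among them (adjusted p = 0.130), and 1 for BCL2L15, whose value without wild-type replicate 2 was -2.53 (edgeR adjusted p = 0.0723). BCL2L15 had at most 25 counts in any library outside the knockdown.

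In the caspase arm, BIRC3 had the value farthest above 0, at 3.55, with 0.53 for BIRC5, 0.55 for the apoptosome gene APAF1 and -0.62 for HTRA2. In the death receptor arm, the value was 0.82 for TNFRSF10B, 0.72 for CFLAR, 0.58 for FAS and 0.39 for TNFRSF10A; the call was lost in 5 of 13 alternatives for FAS (edgeR adjusted p = 0.0553 to 0.0884) and in 3 for TNFRSF10A (0.0774 to 0.0970), each time with 1 library left out. Among the regulators it was -1.17 for TP73, -0.73 for MARCHF5, a ligase that acts in MCL1 turnover, -0.56 for CDKN1A, -0.55 for FOXO3 and -0.27 for MDM2; with 1 library left out, the call was lost in 4 cases for MDM2, 2 for TP73 and 1 for MARCHF5. For the targeted genes themselves it was -0.67 for ARID1A and 1.15 for NCAPH2. The ARID1A call passed in only 4 of 13 alternatives; it was lost with total counts (edgeR adjusted p = 0.0602), the replicate block (0.0597), DESeq2 (0.0929) and 6 of the 8 libraries left out, and the value was -0.42 without wild-type replicate 2. The controls of the 2 effects differed in BCL2, BID, PMAIP1, CDKN1A and FAS as given above, and the part of these baselines in the values was not tested.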

How the results depend on the processing

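With each library left out in turn, the count of members changed in the knockout lay between 4 (without knockout replicate 2) and 6, beside 6 with all libraries, and that of members changed in the knockdown lay between 0 (without shRNA control replicate 1 or knockdown replicate 1) and 1, beside 1 with all libraries, and was 2 in a fit of its 4 libraries alone. In the interaction contrast it lay between 2 (without knockout replicate 2 or shRNA control replicate 2) and 4, beside 4, and was 5 with scaling to total counts. Over all genes, the count changed lay between 1388 and 1548 in the knockdown, beside 2639, whichever of its 4 libraries was left out. In the shRNA control against wild type it lay between 1592 and 3469, beside 3205, and the low counts, 1592 and 1645, came without shRNA control replicate 1 and replicate 2. In the knockout, the count over all genes was also lower whichever of its 4 libraries was left out. In the interaction contrast it moved both ways. Fewer libraries enter these fits, and the part of this in the counts was not tested. Replicate numbers did not pair the libraries, with correlations of deviations between same-numbered libraries from -0.02 to 0.03, and a replicate block gave 5500 changed genes in the knockout, 2483 in the knockdown, 3026 in the shRNA control and 4209 in the interaction contrast, with no change in the call of a member. Of 1505 values of single genes under an alternative, 1343 kept direction and side of the threshold, 111 lost the call, 16 gained one and 35 had the opposite sign; the cause was not tested. These 35 belong to 24 results, 0 of which passed the test with all libraries or under that alternative, and their ranges of log2 fold changes with 1 library left out follow. In the knockout, these were BAK1 (-0.27 to 0.37), BBC3 (-0.066 to 0.75), BCL2L15 (-0.83 to 1.60), BIK (-0.65 to 0.0013) and FAS (-0.073 to 0.26). In the knockdown, these were BAK1 (-0.016 to 0.13), BCL2L11 (-0.020 to 0.089), BID (-0.039 to 0.14), BMF (-1.69 to 0.057), BOK (-0.27 to 0.14), TNFRSF10A (-0.062 to 0.055), TP73 (-0.11 to 0.33) and XIAP (-0.0088 to 0.12). In the shRNA control against wild type, these were ARID1A (-0.31 to 0.15), BAK1 (-0.15 to 0.0006), BBC3 (-0.017 to 0.80), BCL2L15 (-1.80 to 0.66), BIK (-0.080 to 0.57), BIRC3 (-0.094 to 0.18), CASP10 (-0.26 to 0.15), FOXO3 (-0.037 to 0.10), TNFRSF10A (-0.15 to 0.023) and TP73 (-0.36 to 0.088). In the interaction contrast, it was BAK1 (-0.32 to 0.32). With scaling to total counts, TNFRSF10A in the knockdown was at 0.013, and BIRC3 and FOXO3 in the shRNA control against wild type were at -0.0003 and -0.003. With 2 libraries per group and few counts in BMF and BIK, small changes were not detectable.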
